A study of Mus with 10 samples.

Results

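The mRNA decay regulators described here are the 7 genes *Zfp36*, *Zfp36l1*, *Zfp36l2*, *Zc3h12a*, *Rc3h1*, *Rc3h2* and *Elavl1*, taken by name from the 24564 genes of the deposited count table. All 7 were among the 11463 genes that passed the filter on low counts. They were selected on what they are known to do to cytokine mRNAs, with the measured differences between the genotypes in view. They were measured by RNA-seq in ILC1s, type 1 innate lymphoid cells, sorted from the livers of C57BL/6 mice, with 5 libraries from *Ncr1+/+* mice and 5 from *Ncr1gfp/gfp* mice. In *Ncr1gfp/gfp* mice, *gfp* replaces both copies of *Ncr1*, the gene for the activating receptor NKp46, so that these cells are described as NKp46-deficient. The mice were 6 to 8 weeks old and of either sex. The study compares the genotypes to ask how NKp46 shapes ILC1s. *Ncr1+/+* ILC1s were sorted as Lin-NK1.1+NKp46+CD49b-CD49a+ cells and *Ncr1gfp/gfp* ILC1s as Lin-NK1.1+GFP+CD49b-CD49a+ cells, so that the genotype and the gate cannot be told apart. Littermates are not mentioned in the study, so that the genotype and the mouse line cannot be told apart either. The sources used here do not say whether a library came from a single mouse or a pool, and p-values measure only the spread between these libraries.

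Many mRNAs of cytokines and early response genes carry AU-rich stretches or stem-loops in their 3' ends that mark them for rapid removal. *Zfp36* encodes tristetraprolin, which with its relatives Zfp36l1 and Zfp36l2 binds AU-rich elements through paired CCCH zinc fingers and brings in the CCR4-NOT complex, which shortens the poly(A) tail. *Zc3h12a* encodes Regnase-1, an endonuclease that cuts stem-loops, and *Rc3h1* and *Rc3h2* encode Roquin-1 and Roquin-2, which bind stem-loops and also bring in CCR4-NOT. *Elavl1* encodes HuR, which binds AU-rich elements as well but generally stabilizes the mRNA. *Zfp36* is itself an early response gene, transcribed within minutes of cell activation, and its mRNA carries AU-rich elements.

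Libraries summed to between 17996935 and 22623133 counts in *Ncr1+/+* and to between 15796253 and 21975879 in *Ncr1gfp/gfp* ILC1s. *Ncr1* had between 1913 and 2144 CPM (counts relative to the TMM-normalized size of the library) in *Ncr1+/+* and between 141.5 and 356 CPM in *Ncr1gfp/gfp* ILC1s, in keeping with the labels in every library. All 7 ILC1 markers in the table were above 1 CPM, and their sum was between 3989 and 4251 CPM in *Ncr1+/+* and between 3973 and 4271 CPM in *Ncr1gfp/gfp* libraries, with *Klrb1c* (NK1.1) at 1311 and 1333 CPM and *Itga1* (CD49a) at 779 and 971 CPM on average in *Ncr1+/+* and *Ncr1gfp/gfp* ILC1s. Of these markers *Il7r* fell, from 166 ± 31.7 to 84.6 ± 33.4 CPM (SD, n = 5 each; adjusted p = 0.00773, quasi-likelihood test of edgeR). *Itga1* rose, with a log2 fold change of 0.32 (adjusted p = 0.000481, quasi-likelihood test of edgeR). *Tbx21*, *Cd200r1* and *Cxcr6* had log2 fold changes of -0.13, -0.12 and -0.19 that did not pass. *Eomes*, which marks NK cells, was at 7.10 ± 1.08 and 10.2 ± 4.88 CPM (SD, n = 5 each). *Ncr1+/+* replicate 1 and *Ncr1gfp/gfp* replicate 3 had the highest summed level of 8 hepatocyte markers, 192.5 and 219.6 CPM, against at most 147 CPM in the other libraries.

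*Zfp36* was the regulator with the largest difference between the genotypes. It had 269, 204, 162, 176 and 134 CPM in *Ncr1+/+* replicates 1 to 5 and 128, 139.7, 113, 131.5 and 119.7 CPM in *Ncr1gfp/gfp* replicates 1 to 5. The *Ncr1+/+* libraries were spread over a 2.01-fold range and the *Ncr1gfp/gfp* libraries over a 1.24-fold range, and 4 of the 5 *Ncr1gfp/gfp* libraries lay below every *Ncr1+/+* library. The groups overlapped, because *Ncr1gfp/gfp* replicate 2 was above *Ncr1+/+* replicate 5. On average, *Zfp36* had 189 ± 51.6 CPM in *Ncr1+/+* and 126 ± 10.4 CPM in *Ncr1gfp/gfp* ILC1s (SD, n = 5 each), and the fitted level in *Ncr1gfp/gfp* ILC1s was 66.9% of that in *Ncr1+/+* ILC1s, a log2 fold change of -0.58 with a standard error of 0.12. This passed the thresholds that the study's methods name, which ask for a Benjamini-Hochberg adjusted p-value under 0.05, here from edgeR's quasi-likelihood test, together with a fold change of more than 1.5 or less than 0.7. The fitted fold change of 0.669 lay just inside the limit of 0.7. *Zfp36* was the 1 of 7 regulators that passed, whereas 0.733% of all tested genes passed, 0.532% with a lower and 0.201% with a higher level. The 7 genes were chosen with this comparison in view, so that their differences are a description and nothing is read from this count. The difference leaned on *Ncr1+/+* replicate 1, since without that library the log2 fold change of *Zfp36* was -0.42 and its fold change of 0.748 missed the limit. Without *Ncr1gfp/gfp* replicate 3 the fold change was 0.687 and the adjusted p-value rose above 0.05. The call was also lost with DESeq2 (adjusted p-value above 0.05), with limma-voom (fold change 0.714) and without both libraries highest in hepatocyte markers (fold change 0.768). In these bulk samples, fewer cells that carry an mRNA and less mRNA per cell cannot be told apart.

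**Figure D1:**
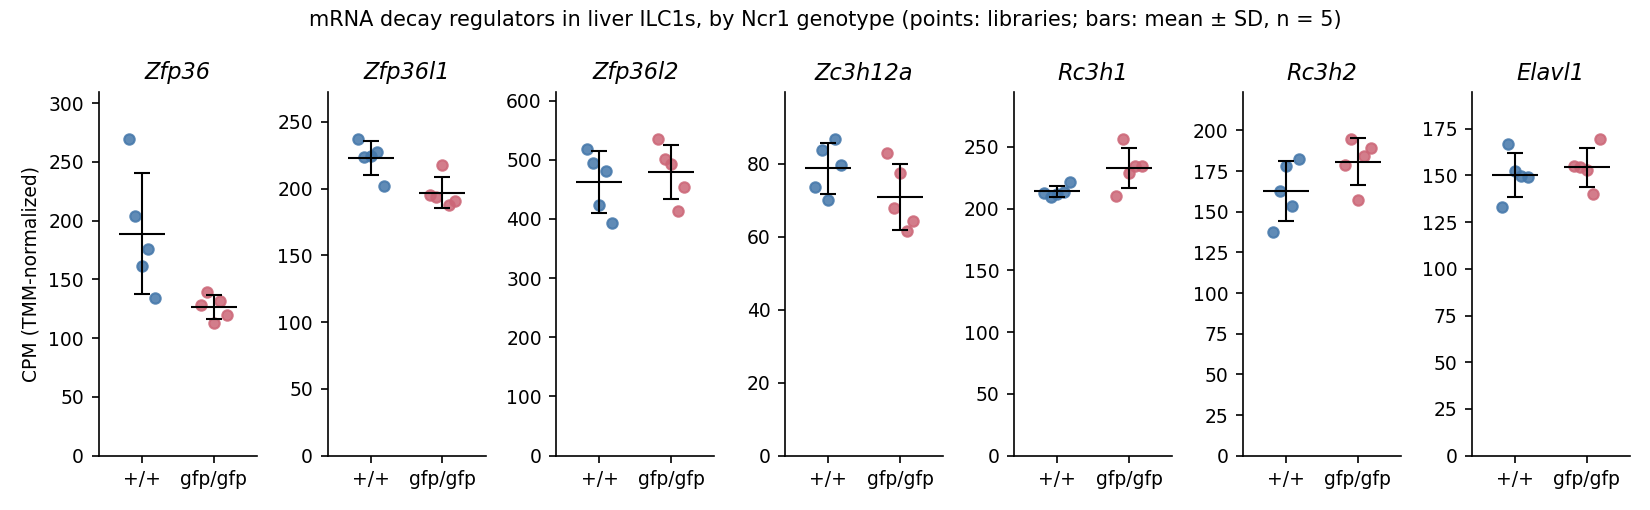
CPM of the 7 regulators (vertical axes, starting at 0, with a scale of their own for each gene) in 5 *Ncr1+/+* (blue) and 5 *Ncr1gfp/gfp* (red) libraries, with points for libraries and black bars for the mean ± SD. *Zfp36* spans 134 to 269 CPM in *Ncr1+/+* and 113 to 139.7 CPM in *Ncr1gfp/gfp* ILC1s. *Zfp36l1* also has 4 *Ncr1gfp/gfp* libraries below every *Ncr1+/+* library, and *Rc3h1* has 4 above.

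The relatives of *Zfp36* differed less. *Zfp36l1* had 237, 224, 225, 227.5 and 202 CPM in *Ncr1+/+* and 195, 194, 217, 188 and 191 CPM in *Ncr1gfp/gfp* replicates 1 to 5. Again 4 of the 5 *Ncr1gfp/gfp* libraries were below every *Ncr1+/+* library, and replicate 3 alone was above *Ncr1+/+* replicate 5. Its means were 223 ± 12.9 and 197 ± 11.8 CPM (SD, n = 5 each). The log2 fold change was -0.18 with a standard error of 0.06, and it did not pass the thresholds. *Zfp36l2*, the most abundant of the 3 relatives, had 519, 494, 423, 481 and 393 CPM in *Ncr1+/+* and 534, 501, 492.5, 414 and 454.5 CPM in *Ncr1gfp/gfp* ILC1s. These values were intermixed, with means of 462 ± 52.1 and 479 ± 46.4 CPM (SD, n = 5 each) and a log2 fold change of 0.05 with a standard error of 0.07.

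Regnase-1 and the Roquins differed by at most 11% in the fit. *Zc3h12a* had 73.7, 83.6, 69.9, 86.6 and 79.7 CPM in *Ncr1+/+* and 82.9, 67.9, 77.4, 61.4 and 64.3 CPM in *Ncr1gfp/gfp* replicates 1 to 5. The lowest values were in 3 *Ncr1gfp/gfp* libraries, but *Ncr1gfp/gfp* replicate 1 was exceeded only by *Ncr1+/+* replicates 2 and 4. The means were 78.7 ± 6.89 and 70.8 ± 9.07 CPM (SD, n = 5 each), and the log2 fold change was -0.15 with a standard error of 0.09. *Rc3h1* was the most even regulator in *Ncr1+/+* ILC1s, at 213, 209.7, 212, 213 and 222 CPM, a coefficient of variation of 2.11%. In *Ncr1gfp/gfp* ILC1s it was at 210.1, 256, 229, 234 and 234 CPM, of which 4 values were above every *Ncr1+/+* library, and the log2 fold change was 0.12 with a standard error of 0.06. *Rc3h2* had 138, 163, 178, 153 and 183 CPM in *Ncr1+/+* and 179, 194.5, 157, 184.5 and 189 CPM in *Ncr1gfp/gfp* ILC1s. The highest values were in 3 *Ncr1gfp/gfp* and the lowest in *Ncr1+/+* libraries, and the log2 fold change was 0.15 with a standard error of 0.08. The ratio of *Rc3h1* to *Rc3h2*, per length, was 1.08 ± 0.119 in *Ncr1+/+* and 1.05 ± 0.0870 in *Ncr1gfp/gfp* ILC1s (SD, n = 5 each), so that the balance of the Roquins moved by less than its spread.

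*Elavl1* had 133, 167, 152, 149.7 and 149 CPM in *Ncr1+/+* and 155, 154, 153, 140 and 169 CPM in *Ncr1gfp/gfp* ILC1s. The libraries were intermixed, with means of 150.2 ± 11.9 and 154 ± 10.4 CPM (SD, n = 5 each), and the log2 fold change was 0.04 with a standard error of 0.07. Of the 7 regulators, 3 had a lower and 4 a higher fitted level in *Ncr1gfp/gfp* ILC1s, with a median log2 fold change of 0.04, and 49.3% of all tested genes were lower. None of the 7 had CPM ranges without overlap between the genotypes. Of all tested genes, 3.11% did, 1.82% lower and 1.28% higher. At that share, none among 7 genes is no departure from the rest, and nothing is read from it.

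**Figure D2:**
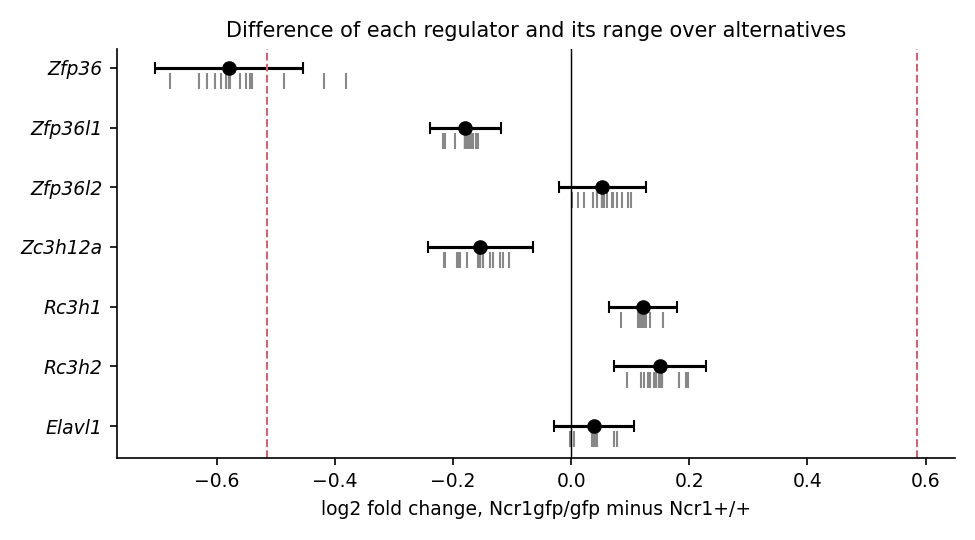
Log2 fold change of each regulator between *Ncr1gfp/gfp* and *Ncr1+/+* ILC1s (points, with bars for the standard error), the values under 18 alternative settings (grey ticks) and the fold change limits of 0.7 and 1.5 (dashed lines). *Zfp36* lies at -0.58 with alternatives from -0.68 to -0.38, and the other 6 genes lie between -0.18 and 0.15.

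Levels of different genes were compared as CPM per kb of exon. In both genotypes *Zfp36l2* was highest, at 131 ± 14.7 in *Ncr1+/+* and 136 ± 13.1 CPM per kb in *Ncr1gfp/gfp* ILC1s (SD, n = 5 each), above 97.5% of all tested genes. *Zfp36* followed with 107 ± 29.2 and 71.6 ± 5.87 CPM per kb, and *Zfp36l1* with 74.7 ± 4.31 and 65.98 ± 3.94 CPM per kb. *Zc3h12a*, *Elavl1*, *Rc3h1* and *Rc3h2* were lower, with means between 18.2 and 28.1 CPM per kb.

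Neighbours in this order were tested over the 10 libraries with a two-sided exact sign-flip permutation test, adjusted over the 6 neighbouring pairs. The test measures how steady a difference was over the libraries. A wrong exon length or uneven coverage of a gene would move every library alike, and this was not tested. *Zfp36l2* was above *Zfp36* in 9 of 10 libraries by 0.62 ± 0.37 on the log2 scale (SD, n = 10; adjusted p = 0.00781, exact permutation test), with *Ncr1+/+* replicate 1 as the exception. *Zfp36* was above *Zfp36l1* in 9 of 10 libraries by 0.30 ± 0.31 (SD, n = 10; adjusted p = 0.0146, exact permutation test), with *Ncr1gfp/gfp* replicate 3 as the exception. *Zfp36l1* was above *Zc3h12a* by 1.41 ± 0.15 in every library (SD, n = 10; adjusted p = 0.00586 in the exact permutation test). *Zc3h12a* and *Elavl1*, whose order was reversed in *Ncr1gfp/gfp* ILC1s, did not differ beyond their spread (adjusted p = 0.248, exact permutation test), nor did *Rc3h1* and *Rc3h2* (adjusted p = 0.0867, exact permutation test). *Elavl1* was above *Rc3h1* in every library by 0.32 ± 0.13 (SD, n = 10; adjusted p = 0.00586, exact permutation test). The pooled test covers genotypes in which *Zfp36* differs. The difference of *Zfp36l2* over *Zfp36* was 0.32 ± 0.23 in *Ncr1+/+* and 0.92 ± 0.18 in *Ncr1gfp/gfp* ILC1s (SD, 5 libraries each). *Zfp36* was above *Zfp36l1* by 0.48 ± 0.31 in *Ncr1+/+* but by 0.12 ± 0.19 in *Ncr1gfp/gfp* ILC1s, which is less than its spread, and 5 libraries cannot give a p below 0.0625 in this test.

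The make-up of the Zfp36 family followed from these levels. *Zfp36* made up between 29.8% and 40.3% of the summed level of the 3 relatives in *Ncr1+/+* and between 23.2% and 29.3% in *Ncr1gfp/gfp* libraries. *Zfp36l2* made up between 38.8% and 43.7% in *Ncr1+/+* and between 46.0% and 52.3% in *Ncr1gfp/gfp* libraries. The share of *Zfp36l1* was 24.2 ± 2.38% and 24.2 ± 1.57% (SD, n = 5 each). The sum of the 3 relatives was 313 ± 46.7 CPM per kb in *Ncr1+/+* and 273 ± 15.4 CPM per kb in *Ncr1gfp/gfp* ILC1s (SD, n = 5 each), and its ranges overlapped. The shares come from the same comparison that chose the genes and are given as a description.

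**Figure D3:**
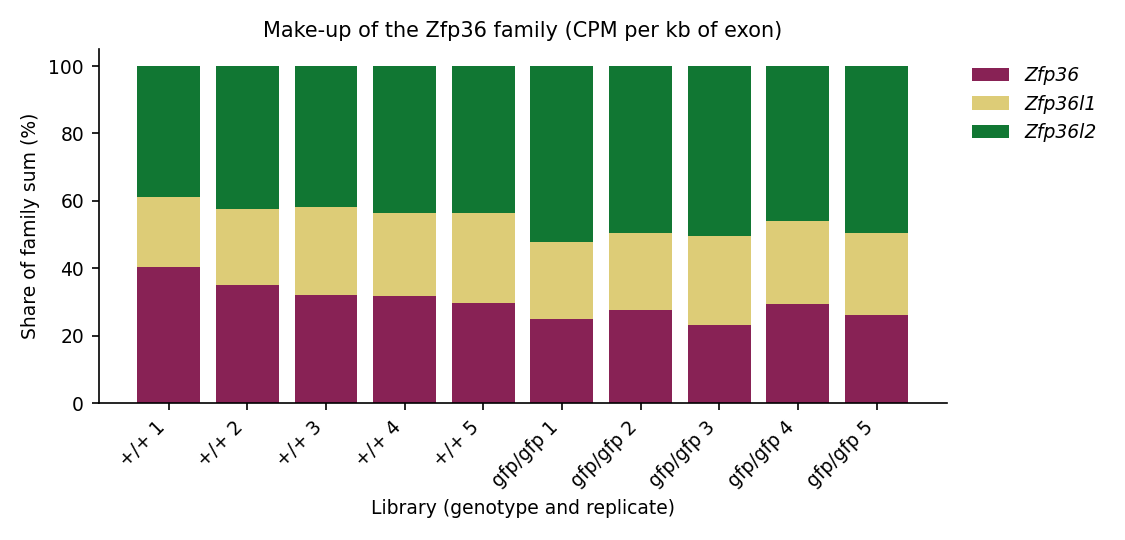
Share of *Zfp36*, *Zfp36l1* and *Zfp36l2* in their summed CPM per kb of exon (vertical axis, percent) in each of the 10 libraries (horizontal axis, genotype and replicate). *Zfp36* takes at least 29.8% in each *Ncr1+/+* library and at most 29.3% in each *Ncr1gfp/gfp* library.

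Genes of mRNA decay and related RNA binding proteins were read as lists beside all tested genes. Of 20 tested genes of CCR4-NOT and poly(A) removal, 18 of decapping and 5'-to-3' decay, 14 other AU-rich element binding proteins and 9 relatives and partners of the regulators, 0 had an adjusted p-value under 0.05 in edgeR's quasi-likelihood test. This was also the count with DESeq2, limma-voom and edgeR's likelihood ratio test, and 2, 1, 1 and 2 genes of these lists had an unadjusted p-value under 0.05 in the quasi-likelihood test, as did 11.4% of all tested genes. Over all tested genes, 1.35% had an adjusted p-value under 0.05, with 0.785% lower and 0.567% higher. In lists of this size a count of 0 is near that share, and nothing particular to these genes is read from it. The median log2 fold changes of these lists were 0.01, 0.00, -0.01 and 0.08, against 0.00 over all tested genes, and their members lay between -0.21 and 0.28.

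Among them, *Pabpc1*, the poly(A) binding protein, had 880.5 ± 49.99 and 911 ± 69.4 CPM, and *Btg2*, which couples mRNAs to CCR4-NOT, had 544 ± 91.2 and 494 ± 22.7 CPM in *Ncr1+/+* and *Ncr1gfp/gfp* ILC1s (SD, n = 5 each). *Ddx6*, the helicase of decapping complexes, had 541 ± 28.8 and 525 ± 34.97 CPM, and *Lsm14a* had 199 ± 15.8 and 190.2 ± 6.23 CPM (SD, n = 5 each). *Hnrnpab* and *Ptbp3*, the other AU-rich element or pyrimidine binding proteins with the highest levels per length, had log2 fold changes of -0.07 and 0.02. *Zc3hav1*, an antiviral CCCH zinc finger protein, and *Upf1*, the helicase of nonsense-mediated decay that also works with Regnase-1, had log2 fold changes of 0.06 and 0.08. The neuronal relatives *Elavl2*, *Elavl3* and *Elavl4* and the CCCH relatives *Zfp36l3*, *Zc3h12b* and *Zc3h12c* did not pass the filter, with at most 23 counts in any library.

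The exosome, which degrades RNA from the 3' end, held the 1 decay gene that passed the test. *Dis3*, its catalytic subunit, had between 24.2 and 32.9 CPM in *Ncr1+/+* and between 36.2 and 42.0 CPM in *Ncr1gfp/gfp* libraries, without overlap. Its log2 fold change was 0.43 with a standard error of 0.10 (adjusted p = 0.0277, edgeR's quasi-likelihood test), which is below the fold change limit of 1.5. The call held in 11 of 18 alternatives, with log2 fold changes between 0.37 and 0.48 and adjusted p-values up to 0.0832 (edgeR, DESeq2 or limma), and it was lost without *Ncr1+/+* replicate 1, 3 or 4 without *Ncr1gfp/gfp* replicate 1, 2 or 4, and without both libraries highest in hepatocyte markers. The other 16 exosome and SKI genes did not pass, with *Skiv2l* and *Skiv2l2*, the helicases that feed the exosome, at log2 fold changes of -0.12 and -0.05.

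Tristetraprolin is held inactive by phosphorylation through p38 and MK2, after which 14-3-3 proteins bind it. Of the 15 tested kinases, phosphatases and 14-3-3 proteins of this step, 0 had an adjusted p-value under 0.05 in edgeR's quasi-likelihood test and 3 had an unadjusted p-value under 0.05, which 11.4% of all tested genes had. DESeq2 called 1, *Mapkapk2*, the gene for MK2, which was named after its value was seen, and the likelihood ratio test called 1, *Dusp1*. *Dusp1*, a phosphatase of p38, had 246 ± 104.6 CPM in *Ncr1+/+* and 149 ± 16.9 CPM in *Ncr1gfp/gfp* ILC1s (SD, n = 5 each; adjusted p = 0.0685, edgeR's quasi-likelihood test). The 14-3-3 gene *Ywhab* had a log2 fold change of 0.02.

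**Figure D4:**
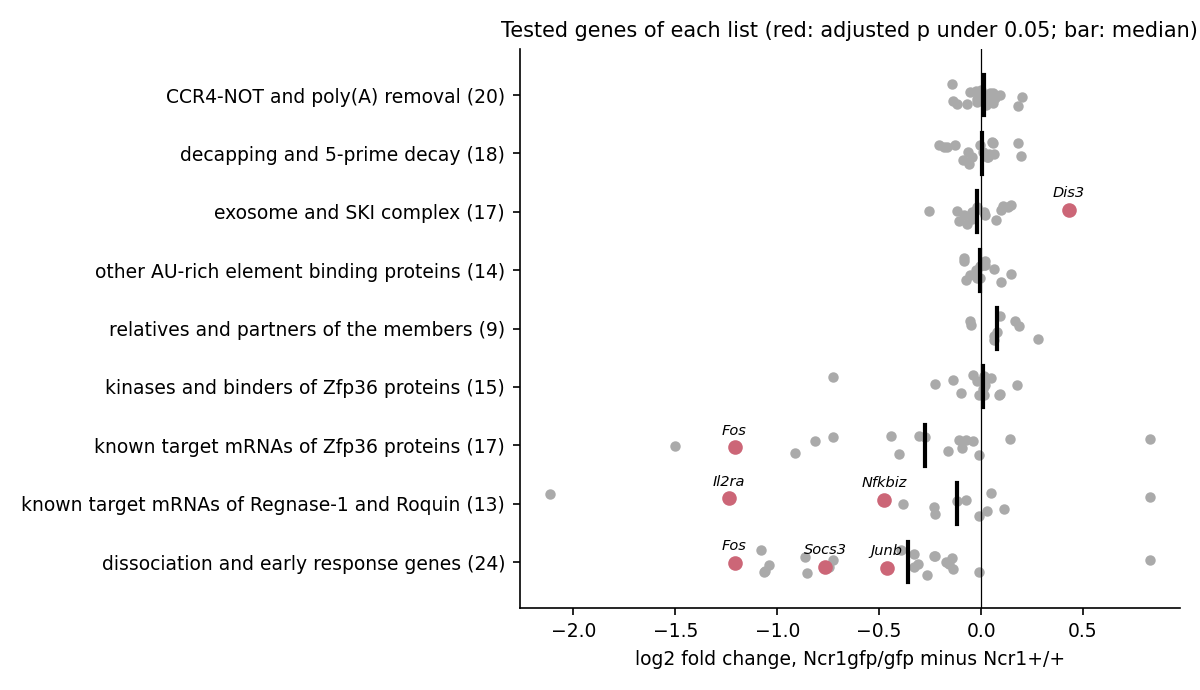
Log2 fold change between *Ncr1gfp/gfp* and *Ncr1+/+* ILC1s (horizontal axis) of the tested genes of 9 lists (rows, with the number of tested genes), with genes at an adjusted p-value under 0.05 in red and the median of each list as a black bar. The decay machinery gathers around 0 with *Dis3* at 0.43, and the target and early response lists reach to the left, with medians of -0.28, -0.12 and -0.36.

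Of 27 mRNAs known as targets of Zfp36 proteins, 17 were tested and the other 10, among them *Il6*, *Il10* and *Ptgs2*, had at most 20 counts in any library. Of the 17, 15 had a lower and 2 a higher fitted level in *Ncr1gfp/gfp* ILC1s, with a median log2 fold change of -0.28. Over all tested genes, 49.3% were lower. Among the 15, *Tnf*, *Csf2* and *Il2* had log2 fold changes of -0.07, -0.04 and -0.01. The 1 of the 17 that passed the test was *Fos*, an early response transcription factor, whereas 1.35% of all tested genes passed. *Fos* had between 54.2 and 243 CPM in *Ncr1+/+* and between 42.6 and 104.5 CPM in *Ncr1gfp/gfp* libraries. Its log2 fold change was -1.21 (SE 0.29). Its adjusted p, by the quasi-likelihood test of edgeR, was 0.0377. This call held in 7 of 18 alternatives. It was lost with DESeq2, with limma-voom, with the replicate number as a block and without both libraries highest in hepatocyte markers. It was also lost without *Ncr1+/+* replicate 1, 2 or 4 and without *Ncr1gfp/gfp* replicate 1, 2, 3 or 5. *Ifng*, the signature cytokine of ILC1s, had 175 ± 28.0 and 129 ± 27.0 CPM (SD, n = 5 each) and differed by -0.44 on the log2 scale (adjusted p = 0.0683, edgeR's quasi-likelihood test). *Ccl3*, a chemokine, had a log2 fold change of -0.11.

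Of 17 mRNAs known as targets of Regnase-1 or the Roquins, 13 were tested. Of these, 9 had a lower and 4 a higher fitted level, with a median log2 fold change of -0.12. Over all tested genes, 49.3% were lower. *Il2ra* and *Nfkbiz* passed the test, both lower, or 15.4% of the tested targets. Of all tested genes, 1.35% passed the test, 0.785% with a lower level. *Nfkbiz*, which encodes an inducible IκB protein, had between 110.4 and 162 CPM in *Ncr1+/+* and between 87.1 and 107 CPM in *Ncr1gfp/gfp* libraries, a log2 fold change of -0.47 (SE 0.085). Its adjusted p, by the quasi-likelihood test of edgeR, was 0.00393. *Il2ra* fell from 43.4 ± 6.08 to 18.5 ± 2.96 CPM (SD, n = 5 each; adjusted p = 7.08e-06, edgeR's quasi-likelihood test). Both calls held in 18 of 18 alternatives. *Gata3*, a transcription factor of lymphoid cells, had a log2 fold change of -0.12. The lists of targets were compiled from general knowledge, with earlier results of these data known, so that nothing is read from their counts. They also share members with each other. *Fos*, *Dusp1* and *Ier3* are both in the list of Zfp36 targets and in the early response list that follows.

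Because *Zfp36* is an early response gene that cell isolation can induce, 24 genes of the early response and of cell dissociation were read beside it. This list too was chosen with earlier results of these data known. Of these genes, 23 had a lower and 1 a higher fitted level in *Ncr1gfp/gfp* ILC1s, with a median log2 fold change of -0.36. Over all tested genes, 49.3% were lower. *Socs3*, *Junb* and *Fos* passed the test, all lower, or 12.5% of the list. Of all tested genes, 1.35% passed the test, 0.785% with a lower level. *Socs3*, an inhibitor of cytokine signaling, had between 23.5 and 33.6 CPM in *Ncr1+/+* and between 13.8 and 21.2 CPM in *Ncr1gfp/gfp* libraries, and its call held in 18 of 18 alternatives. *Junb*, an AP-1 factor, had 719 ± 156 and 521 ± 57.02 CPM (SD, n = 5 each) and differed by -0.46 on the log2 scale (adjusted p = 0.0334, edgeR's quasi-likelihood test), and its call held in 8 of 18 alternatives. The number that passed was 1 without *Ncr1+/+* replicate 1, 2 or 4 or *Ncr1gfp/gfp* replicate 2, 3 or 5, 5 without *Ncr1gfp/gfp* replicate 4 and 6 without *Ncr1+/+* replicate 5.

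The summed CPM of these 24 genes, *Btg2* and *Fos* among them and *Zfp36* not, was 6178, 5864, 4892, 5096 and 3286 in *Ncr1+/+* and 3467, 4045, 3522, 4902 and 3570 in *Ncr1gfp/gfp* replicates 1 to 5. The *Ncr1+/+* libraries had the same order for this sum as for *Zfp36*, from replicate 1 at the top to replicate 5 at the bottom. The *Ncr1gfp/gfp* libraries did not. Among them the sum was highest in replicate 4 and lowest in replicate 1, and *Zfp36* was highest in replicate 2 and lowest in replicate 3. *Ncr1+/+* replicate 5 had a sum below every *Ncr1gfp/gfp* library, while its 134 CPM of *Zfp36* lay within their range. *Ncr1gfp/gfp* replicate 4 had a sum above *Ncr1+/+* replicate 3 but 131.5 CPM of *Zfp36* against 162 CPM. The part of cell handling in the *Zfp36* difference was not tested. The summed level of 8 T cell markers also moved with the genotype, from between 461 and 579 CPM in *Ncr1+/+* to between 633 and 835 CPM in *Ncr1gfp/gfp* libraries. The gate left out cells with CD3 on their surface. Most of the sum was *Cd3g*, at 501 and 687 CPM on average (adjusted p = 0.00169, edgeR's quasi-likelihood test). *Cd3e* had 5.72 and 21.1 CPM on average (adjusted p = 0.00235, edgeR's quasi-likelihood test). *Cd8a* had 6.69 and 19.4 CPM (adjusted p = 0.0248, edgeR's quasi-likelihood test). *Cd3d*, at 6.62 and 13.65 CPM, and *Cd4*, at 1.95 and 2.31 CPM, did not pass, and 3 of the 8 markers were below 1 CPM. The summed level of 7 ILC2 and ILC3 markers moved the other way, from between 134 and 157 CPM in *Ncr1+/+* to between 73.3 and 128.5 CPM in *Ncr1gfp/gfp* libraries, again without overlap. Most of that sum was *Rora*, at 106 and 76.5 CPM on average, and *Kit*, at 32.0 and 18.9 CPM, and 3 of the 7 markers were below 1 CPM. The part of either marker group in the differences of the regulators was not tested.

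**Figure D5:**
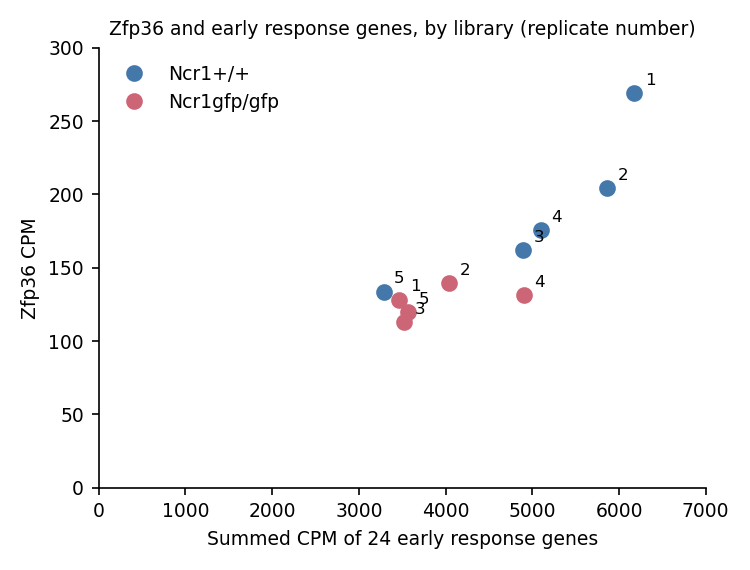
CPM of *Zfp36* (vertical axis) against the summed CPM of 24 early response and dissociation genes (horizontal axis) in 5 *Ncr1+/+* (blue) and 5 *Ncr1gfp/gfp* (red) libraries, each marked with its replicate number. *Ncr1+/+* replicate 1 is highest on both axes, at 6178 and 269 CPM, and *Ncr1+/+* replicate 5 has the lowest sum, 3286 CPM, with *Zfp36* at 134 CPM.

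To see how the regulators vary apart from the genotype, the genotype mean was taken off the log2 CPM of every tested gene, and each regulator was compared with the 11462 other tested genes over the 10 libraries. The values are Pearson's r, the highest of many partners over few libraries that share depth and handling, and are given as a description. The nearest genes to *Zfp36* were *Slc30a9* (r = 0.98), *Btg2* (r = 0.95) and *Snord49a* (r = 0.94), of which *Btg2* is an early response gene. *Zfp36l1* was nearest to *Prrc2b*, *Styx* and *Zmiz1*, and *Zfp36l2* to *Zfp422*, *Snhg8* and *Pitpnm2*, with r between 0.905 and 0.94. *Zc3h12a* was nearest to *Rfc2* (r = 0.95), *Dusp5* (r = 0.95) and *Nup188* (r = 0.93), and *Elavl1* to *Bmt2* (r = 0.96), *Elk4* (r = 0.93) and *Dnajc13* (r = 0.91). *Rc3h1* was nearest to *Ube2k*, *Tgs1* and *Papd7*, and *Rc3h2* to *Trmt5*, *E2f4* and *Smap1*, with r between 0.94 and 0.97.

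Among the regulators themselves, *Zfp36l2* varied in step with *Zfp36* (r = 0.67) and *Zfp36l1* (r = 0.66), while *Zfp36* and *Zfp36l1* had r = 0.44 over the same 10 libraries. *Rc3h2* ran opposite to all 3, with r of -0.56 for *Zfp36*, -0.84 for *Zfp36l1* and -0.64 for *Zfp36l2*. *Ncr1+/+* replicate 1 and *Ncr1gfp/gfp* replicate 3, highest in hepatocyte markers, each had the highest *Zfp36l1* and the lowest *Rc3h2* of its genotype. How far these r values rest on those libraries was not tested. *Rc3h1* and *Rc3h2* had r = 0.35, and *Elavl1* stayed between -0.37 and 0.41 with every other regulator.

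In the deposited table, whose coordinates differ from those of GRCm38 (mm10) and whose genome build is not named, *Zfp36* is listed on chromosome 7, minus strand, at 29161803 to 29164247 with 1765 bases of exon, *Zfp36l1* on chromosome 12 from 81208747 to 81214000 and *Zfp36l2* on chromosome 17 from 84583269 to 84587287. *Zc3h12a* is on chromosome 4 from 124795658 to 124805125, *Rc3h1* on chromosome 1, plus strand, from 162836542 to 162905107, *Rc3h2* on chromosome 2 from 37225591 to 37278423 and *Elavl1* on chromosome 8 from 4284782 to 4325100. *Rc3h1* has the longest exons in sum, 11011 bases. No other gene of the table overlaps 6 of the 7 regulators, and *Rc3h2* holds *Snord90*, which had at most 9 counts in any library.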

How the data were processed

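Gene counts of 5 *Ncr1+/+* and 5 *Ncr1gfp/gfp* liver ILC1 libraries were analysed. The authors made polyA-primed cDNA from 2 ng of RNA, read 51 cycles from one end, trimmed with Trimmomatic and FASTP, aligned to mm10 by STAR and used HTSeq with its defaults. The counts that the authors deposited are whole numbers with no normalization. The cDNA kit is not stated to keep the strand.

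Filtering used filterByExpr, scaling used TMM and testing used edgeR (4.0.16, R 4.3.3, quasi-likelihood, no covariates), adjusted by Benjamini-Hochberg over 11463 genes. Standard errors were the log2 fold change over the root of the F statistic. Levels per kb used the exon lengths of the table. The 20 pairs of libraries of one genotype had a chi-square per gene between 9.18 and 24.0, more than counting error alone would give. Separate preparations of one sample could also give this, so that it does not show that libraries came from different mice. Each library was treated as a replicate. A count of 3 was between 0.132 and 0.190 CPM, which covers counting error only. On counts simulated for this comparison over 11304 genes, 42 of 98 genes with a 1.5-fold change, 83 of 99 with a 2-fold change and 2 of 11107 unchanged genes passed the thresholds.

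The regulators and gene lists were chosen with earlier results of these data known. Named genes were the regulators, list genes with an adjusted p-value under 0.05, the 2 genes of each list with the highest level per length, the 3 genes nearest to each regulator and *Ncr1*. Markers, untested genes, *Mapkapk2*, *Tnf*, *Csf2* and *Il2* were named besides. Alternatives were DESeq2 1.42.0, upper-quartile scaling, other count filters, the likelihood ratio test, limma-voom (limma 3.58.1), a higher fold limit, the replicate number as a block and leaving out each library. Leaving out both libraries highest in hepatocyte markers was chosen after seeing the data. The label of *Ncr1gfp/gfp* replicate 5 carries the index 66 and the others 49 to 57, which is not stated to mark a batch.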

Additional observations from a re-analysis of the deposited data

Results flagged for a closer look

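Among 42 groups of 5 libraries, examined for a library far from the rest of its genotype by its gap over the range of the group, 1 passed the limit, where 2.1 would pass by chance. This was *Zfp36l1* in *Ncr1gfp/gfp* replicate 3, at 217 CPM against 195 CPM in the next *Ncr1gfp/gfp* library. The same library had the highest summed level of hepatocyte markers, 219.6 CPM. Without it, the log2 fold change of *Zfp36l1* was -0.22 in place of -0.18.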

How the results depend on the processing

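The direction of *Zfp36*, *Zfp36l1*, *Zfp36l2*, *Zc3h12a*, *Rc3h1* and *Rc3h2* was the same under all 18 alternatives, and the log2 fold change of *Elavl1*, below 0 without *Ncr1+/+* replicate 1 only, was between -0.002 and 0.08. The number of regulators past the thresholds was 1 and became 0 with DESeq2, with limma-voom, with an absolute log2 fold change above 1 and without both libraries highest in hepatocyte markers. In these settings *Zfp36* had log2 fold changes between -0.58 and -0.38. Its fold change missed the limit of 0.7 with limma-voom (0.714) and without both libraries (0.768). With DESeq2 its fold change of 0.67 was inside that limit, and its adjusted p-value of 0.0583 was above 0.05. DESeq2 gave 3 regulators an unadjusted p-value under 0.05, as it did 12.3% of all genes it tested. Without each library in turn the number was 0 (*Ncr1+/+* replicate 1 or *Ncr1gfp/gfp* replicate 3 left out) or 1. The number of list genes with an adjusted p-value under 0.05 was 6 of 139 tested, or 4.32%, against 1.35% of all tested genes. The lists were chosen with earlier results known, and nothing is read from this share. The number became 13 with no filter on low counts, 11 with the likelihood ratio test and 3 without both libraries. It was between 3 and 11 without each library in turn. It was lowest without *Ncr1+/+* replicate 1 or 4 or *Ncr1gfp/gfp* replicate 2, at 3 each, and highest without *Ncr1+/+* replicate 5. The number of all genes past the thresholds was 84 and became 128 with DESeq2, 131 with no filter, 138 with the likelihood ratio test, 23 with an absolute log2 fold change above 1 and between 60 and 98 without each library in turn.

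Same-numbered libraries of the 2 genotypes share only a number (correlations of their deviations between -0.02 and 0.04). With the replicate block, 1 regulator passed the thresholds, *Zfp36* had a log2 fold change of -0.54, and 87 of all tested genes passed.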
